A study of Mus musculus with 12 samples.

Results

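The genes described here are 9 guidance ligands and receptors expressed in mouse glomeruli, of 26264 gene symbols counted in the series. They were named by symbol, and all 9 were counted in every library and passed the filter on low counts. The SLIT pathway gave the ligands Slit2 and Slit3 and the receptor Robo2, and the class III semaphorins gave Sema3g and Sema3e. Ephrin signalling gave the membrane-bound ligands Efnb1 and Efnb2 and the receptor Ephb4. Thsd7a, a thrombospondin-domain protein of the podocyte foot process that is also an autoantigen in membranous nephropathy, completed the group.

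RNA was sequenced from glomeruli of male mice, 8 weeks old, with no engineered allele. One substrain was BALB/cAjcl, called Ajcl here, and the other was BALB/cByJcl, called ByJcl. Baseline mice of each substrain were labelled untreated, and Day 5 mice had received adriamycin (ADR, doxorubicin) once into the retro-orbital vein at 10 mg/kg, 5 days earlier. The methods also name control mice given saline, but no library carries that label, and the study too calls the baseline mice untreated. An effect of the injection itself therefore cannot be told apart from that of ADR. ADR injures podocytes and is used as a model of focal segmental glomerulosclerosis. Glomeruli were collected with magnetic beads after perfusion, so the material was enriched and not a pure cell type, and each of the 4 groups held 3 libraries.

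Guidance cues steer growing axons and vessels and also act in the glomerular filter, where podocytes wrap the capillaries with interdigitating foot processes. Secreted SLIT proteins bind ROBO receptors, and ROBO2 in podocytes joins nephrin through the adaptor NCK and acts on the actin cytoskeleton. Secreted class III semaphorins signal through plexins, most of them with a neuropilin as co-receptor, while SEMA3E binds plexin D1 directly. Ephrin-B ligands and EphB receptors signal in both directions between touching cells, and the pair of ephrin-B2 and EphB4 is known for setting arterial against venous identity.

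Libraries held 42198416 to 54687045 counts, with 17574 to 19699 genes counted. Levels are given as CPM, the count of a gene relative to its library's total after scaling for composition, and levels of different genes are compared only per kilobase of transcript. The Ajcl Day 5 replicate 1 library had the most RNA of tubule markers, 4380 CPM summed over 8 proximal markers against 389 to 3870 in the others. It was left out of the fit that gives the tests, as the study did for reduced glomerular purity, so Ajcl Day 5 has n = 2 there and its value is given beside. The glomerular label held in every library, with the 10 podocyte markers summing to 11100 to 24200 CPM, and none of them was at 0. Replicate libraries came from animals the labels do not tie together, and replicate pairs differed beyond counting noise (chi-square per degree of freedom 39.6 to 232).

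The promoters are shown because 3 genes, Sema3g, Thsd7a and Robo2, each held the same short sequence in a promoter window. These were the genes that passed the test as lower at Day 5 in ByJcl, and none of them passed it in Ajcl. A link between the sequence and their change was not tested. All 9 genes matched a RefSeq promoter, and the 250 bases before the RefSeq start were searched on both strands for 6 motifs picked with earlier results of these data known. The letters CAGCTG, an E-box that reads the same on both strands, lay in the windows of these 3 genes and in none of the other 6. Robo2 had 3 RefSeq starts, of which the one nearest to the GENCODE canonical start was used, and the windows of its other 2 starts did not hold these letters. Of 32851 RefSeq promoters with windows of the same length, 13.0% held it. The 30 bases around each E-box, in capitals, are printed in the direction of transcription, from the GRCm39 reference of C57BL/6J and not from BALB/c.
Sema3g, chr14:30939608-30939637, plus strand: ctgtccacacctCAGCTGggtcagagtctc
Thsd7a, chr6:12749280-12749309, minus strand: ctcccttccctaCAGCTGgcggcgggggct
Robo2, chr16:74208733-74208762, minus strand: tccagcccccagCAGCTGctggaggaggcg

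The E-box began 210 bases before the RefSeq start of Sema3g, 45 before that of Thsd7a and 37 before that of Robo2. In Thsd7a the stretch fell inside the first exon of the GENCODE canonical transcript, which starts 187 bases further upstream. Of the other motifs, GCGTGGG, a WT1/EGR site, was in Thsd7a, against 4.3% of all promoters. TGCTGA, a MAF half-site, was in Efnb1 and Ephb4, against 16.1%, and in 1 of the 3 Robo2 windows, not the one used. TATAAA was in Slit2 and Efnb2, against 12.4%. TAATTA, at 4.84% of all promoters, and GTAAACA, at 3.17%, were in none of the 9. A match of letters is a description and says nothing of a factor binding there. For Sema3g, the gene with the highest level, the 228 bases before the transcript start are given in full, with the E-box in capitals.
Sema3g, chr14:30939580-30939807, plus strand: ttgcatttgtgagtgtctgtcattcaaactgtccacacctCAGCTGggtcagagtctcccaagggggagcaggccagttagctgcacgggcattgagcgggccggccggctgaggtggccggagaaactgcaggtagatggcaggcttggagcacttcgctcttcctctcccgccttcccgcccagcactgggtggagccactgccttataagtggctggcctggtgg

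Per kilobase of transcript, Sema3g stood far above the other 8 genes at baseline, and the SLIT ligands stood far below the receptor Robo2. In Ajcl baseline glomeruli Sema3g reached 687 ± 178 CPM per kb (SD, n = 3) and in ByJcl baseline 883 ± 117 (n = 3). These levels ranked 18 and 15 among 13275 tested genes with at least 1 CPM and a transcript length. The ephrin-B ligands came next and could not be set in order. Efnb2 was at 124 ± 8.26 in Ajcl and 133 ± 14.1 in ByJcl, and Efnb1 at 112 ± 15.4 and 130 ± 11.9, with libraries that overlapped those of Efnb2 in both substrains. The next pair, Thsd7a at 72.1 ± 20.1 and 86.7 ± 8.30 and Ephb4 at 66.7 ± 6.53 and 77.0 ± 7.68, also overlapped. The lower places went to the remaining receptor and ligands. Robo2 lay at 43.4 ± 9.97 and 49.7 ± 6.19 and Sema3e at 31.0 ± 5.95 and 36.9 ± 3.35, and those 2 genes overlapped in Ajcl only. Slit3 was at 3.58 ± 0.702 and 4.07 ± 0.530 CPM per kb, and Slit2, the lowest, at 0.988 ± 0.298 and 0.456 ± 0.0468.

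The order changed at Day 5, most of all in ByJcl. There Sema3g had come down to 145 ± 32.5 CPM per kb (n = 3) and its libraries overlapped those of Efnb1 at 115 ± 12.8, which overlapped Efnb2 at 101 ± 18.7, which in turn overlapped Ephb4 at 94.3 ± 5.10. Thsd7a moved from the 4th to the 7th place with 13.6 ± 2.99, below Sema3e at 29.8 ± 3.30 and Robo2 at 25.4 ± 3.45. In Ajcl at Day 5 (n = 2) Sema3g kept the first place at 289 ± 136, and Thsd7a at 40.1 ± 25.6 lay between Robo2 at 44.8 ± 14.0 and Sema3e at 28.0 ± 5.59, overlapping both.

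**Figure D1:**
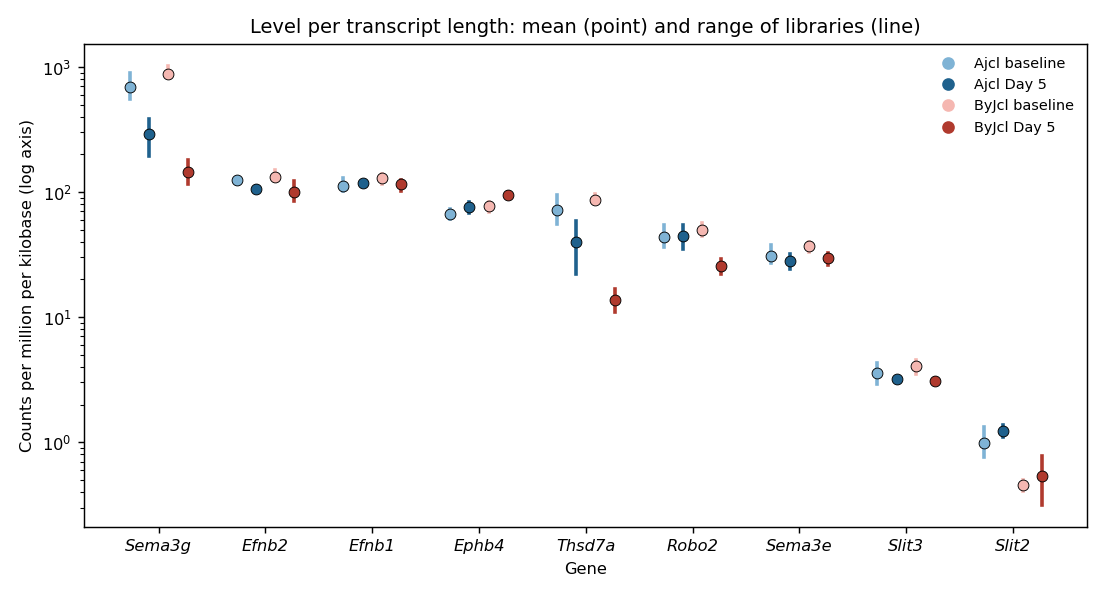
Level of the 9 genes per kilobase of canonical transcript, in CPM per kb on a log axis, by group; points are means and lines run from the lowest to the highest library (Ajcl Day 5 without replicate 1). Sema3g has the highest mean in every group, from 883 CPM per kb in ByJcl baseline to 145 in ByJcl Day 5, where its libraries overlap those of Efnb1. Slit2 is last throughout.

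The central result lay in ByJcl, where 3 of the 9 genes fell between baseline and Day 5 and none rose past the test. Sema3g fell 6.11-fold, Thsd7a 6.37-fold and Robo2 1.95-fold. In the same comparison 10.6% of the 17002 tested genes were called at an adjusted p below 0.05 (edgeR quasi-likelihood test with Benjamini-Hochberg adjustment), 4.83% as lower, with a median log2 fold change over all tested genes of 0.01 and over the 9 genes of -0.39. Baseline and Day 5 counts came in separate tables, so a difference in their handling cannot be told apart from ADR. In bulk RNA, fewer podocytes and less RNA per podocyte cannot be told apart either.

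Sema3g, on chromosome 14 at 30939808 to 30952309 (GRCm39, plus strand), encodes a secreted semaphorin made by podocytes and endothelium. Its level in the ByJcl baseline libraries was 4631, 3716 and 3709 CPM, and at Day 5 it was 816, 523 and 635. No Day 5 library came near the lowest of baseline, and the log2 fold change was -2.61 (SE 0.284, adjusted p = 0.0012). Only 16 of the 13275 ranked genes had a lower fold change. In Ajcl the baseline libraries held 2806, 4047 and 2527 CPM, and Day 5 replicates 2 and 3 held 1749 and 877, with 933 in the left-out replicate 1. No Ajcl library of Day 5 reached the lowest of baseline. The change there, -1.25 (95% interval -1.94 to -0.57), was not called (adjusted p = 0.171), but was by DESeq2 (adjusted p = 0.00172), which called 1.77% of its genes with an adjusted p in Ajcl.

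Thsd7a, on chromosome 6 at 12311609 to 12749439 (minus strand), fell in ByJcl by about as much as Sema3g. The baseline libraries held 1076, 905 and 928 CPM and the Day 5 libraries 189, 124 and 144. The log2 fold change was -2.67 (SE 0.331, adjusted p = 0.00163), which left 15.7% of the baseline level, and 15 of the 13275 ranked genes had a lower value. In Ajcl the spread was wider. Baseline was 617.7, 1055 and 748 CPM, and Day 5 was 651 in replicate 2, 246 in replicate 3 and 220 in the left-out replicate 1. Replicate 2 thus lay within the baseline range while the other 2 lay far below it, and the log2 fold change of -0.85 (95% interval -1.63 to -0.06) was not called (adjusted p = 0.463). Without replicate 2 both Thsd7a and Sema3g were called lower in Ajcl at Day 5, but that fit held 1 Ajcl Day 5 library, assumed to vary like the other groups, and called 180 genes in all. With replicates 1 and 3 as the Day 5 group, a choice made after seeing the data, both were also called, among 148 genes. Replicate 2 also had the highest podocyte marker sum of the Ajcl Day 5 libraries, 17950 CPM against 13870 and 12370 in replicates 3 and 1.

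Robo2, on chromosome 16 at 73688727 to 75244270 (minus strand), was lower at Day 5 in ByJcl by less. It went from 437, 400 and 510 CPM at baseline to 263, 201 and 226, without overlap, a log2 fold change of -0.97 (SE 0.201, adjusted p = 0.0138). The call was lost without ByJcl Day 5 replicate 2. In Ajcl the log2 fold change was 0.05 (95% interval -0.44 to 0.54, adjusted p = 0.965). Baseline there was 329, 494 and 351 CPM, and Day 5 replicates 2 and 3, at 493 and 315, overlapped the baseline range, with 238 in the left-out replicate 1. With that library the value was -0.17.

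The other 6 genes did not pass the test in either substrain. Slit3, on chromosome 11 at 35011789 to 35602786 (plus strand), a secreted ROBO ligand, ranged from 31.4 to 40.9 CPM in ByJcl baseline and from 26.7 to 29.4 at Day 5. These libraries did not overlap, but the log2 fold change of -0.39 (95% interval -0.71 to -0.07) was not called (adjusted p = 0.112). In Ajcl it was 25.9 to 38.5 and 28.0 to 29.1 CPM, with 16.3 in the left-out replicate 1. Sema3e, on chromosome 5 at 14075290 to 14306719 (plus strand), the plexin D1 ligand, ranged from 228 to 273 CPM in ByJcl baseline and from 180 to 225 at Day 5. Its log2 fold change was -0.31 (interval -0.65 to 0.04, adjusted p = 0.24), and it was -0.15 in Ajcl, where the groups overlapped.

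Among the ephrins, Efnb2, on chromosome 8 at 8667226 to 8711249 (minus strand), the ligand of Ephb4 in arterial endothelium, went in ByJcl from 610 to 745 CPM at baseline to 426 to 609 at Day 5. Its log2 fold change was -0.40 (interval -0.71 to -0.08, adjusted p = 0.101), and it was called when ByJcl Day 5 replicate 3 was left out. In Ajcl it went from 576 to 656 to 497 and 559, with 377 in replicate 1, a log2 fold change of -0.24 (adjusted p = 0.716). The highest Day 5 library of each substrain lay just under the lowest of baseline, 609 against 610 in ByJcl and 559 against 576 in Ajcl. Efnb1, on chromosome X at 98179680 to 98205454 (plus strand), was the steadiest of the 9, with 310 to 460 CPM over all 12 libraries and groups that overlapped throughout. Its log2 fold change was -0.18 in ByJcl (adjusted p = 0.423) and 0.08 in Ajcl (adjusted p = 0.909).

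Ephb4, on chromosome 5 at 137348274 to 137376931 (plus strand), the receptor tyrosine kinase of venous endothelium, was the one gene with a positive value whose 95% interval left out 0 in ByJcl, at 0.29 (interval 0.03 to 0.56, adjusted p = 0.147). Its ByJcl libraries held 299, 365 and 342 CPM at baseline and 404, 393 and 436 at Day 5, without overlap. In Ajcl the value was 0.18 (interval -0.11 to 0.48). Slit2 had 0.24 in ByJcl (interval -0.43 to 0.91) and 0.31 in Ajcl (interval -0.42 to 1.04). Baseline and Day 5 libraries did not overlap for 7 of the 9 genes in ByJcl, 6 of them lower, against 33.4% of all tested genes, and for 2 in Ajcl, Sema3g and Efnb2, both lower, against 25.1%. In Ajcl 0 of 9 genes and 0.312% of all tested genes were called by edgeR, 2 of the 9 had an unadjusted p below 0.05 (9.8% of all tested genes did), and DESeq2 called 1, against 1.77% of the genes to which it gave an adjusted p.

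**Figure D2:**
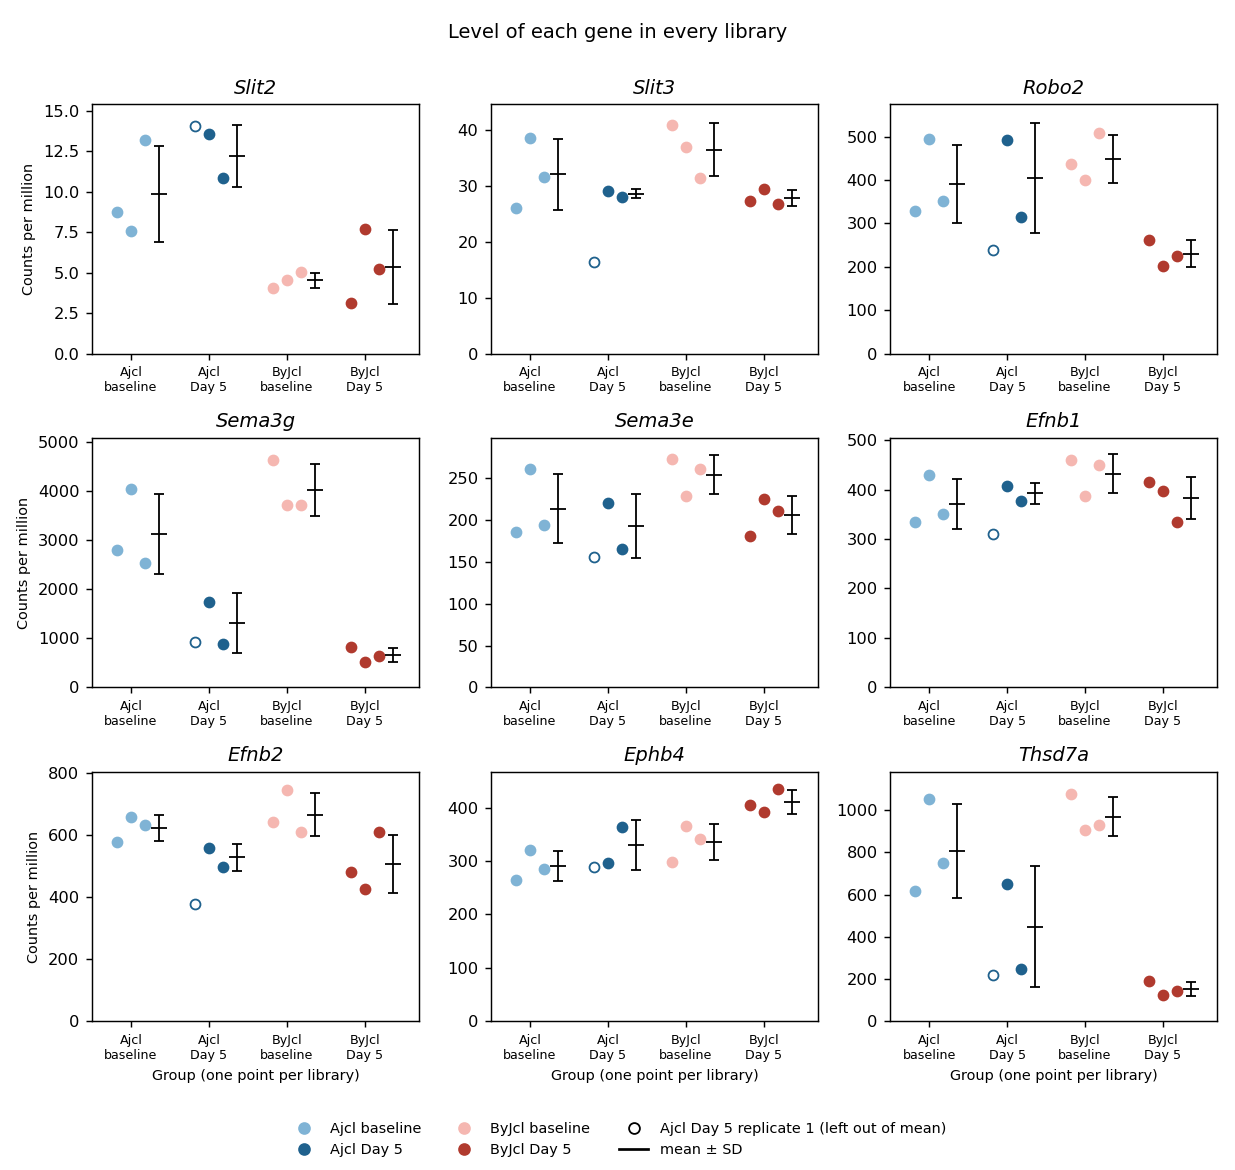
Level of each of the 9 genes in CPM (y axis), 1 point per library, by group on the x axis; bars are mean ± SD and the open point is Ajcl Day 5 replicate 1, left out of the mean. Sema3g and Thsd7a in ByJcl Day 5, at 523 to 816 and 124 to 189 CPM, lie far below their baseline libraries, and Slit2 is lower in ByJcl at both times.

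The question of which substrain difference existed before ADR was addressed by the baseline comparison, in which 0 of 9 genes were called by edgeR, as were 0.159% of all tested genes. One of the 9 had an unadjusted p below 0.05, against 8.34% of all tested genes, and DESeq2 called 1, Slit2, against 0.631% of the genes to which it gave an adjusted p. The other 8 genes had slightly higher values in ByJcl, with log2 differences of 0.10 (Efnb2) to 0.36 (Sema3g), and libraries that overlapped. All 10 podocyte markers were higher as well, with a median of 0.22, none called by edgeR or DESeq2 and none at an unadjusted p below 0.05. Libraries of the 2 substrains did not overlap for 1 of the 9 genes, Slit2, against 14.5% of all tested genes.

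At Day 5 the same comparison gave negative values for the 3 genes that fell in ByJcl. Thsd7a was lower in ByJcl by 1.56 on the log2 scale, with a fold of 2.95 and a 95% interval of -2.31 to -0.80. Sema3g differed by -0.997 (interval -1.65 to -0.35) and Robo2 by -0.81 (interval -1.30 to -0.33). The podocyte markers moved the same way, with a median of -0.56 and 9 of 10 lower in ByJcl, none called by edgeR or DESeq2 and 5 at an unadjusted p below 0.05, and their part in these differences was not tested. None of the 3 genes passed edgeR, with adjusted p values of 0.108, 0.194 and 0.166, in a comparison that called 0.165% of all tested genes. Of the 9 genes 5 had an unadjusted p below 0.05, against 14.0% of all tested genes, and DESeq2 called 4, namely Slit2, Robo2, Sema3g and Thsd7a, against 3.49% of its genes with an adjusted p. Without Ajcl Day 5 replicate 3 edgeR called Sema3g and Thsd7a, in a fit with 1 Ajcl Day 5 library, assumed to vary like the other groups, that called 218 genes in all. With replicates 1 and 2 as that group it called Slit2 and Thsd7a and not Sema3g, among 793 genes. Libraries did not overlap for 5 of 9 genes, Ephb4 being the one higher in ByJcl, against 33.4% of all tested genes, though Ajcl had 2 libraries here. With Ajcl Day 5 replicate 1 included, Robo2 overlapped and its difference was -0.61.

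Whether the substrains differed in their change after ADR was tested as an interaction. Thsd7a had a difference of changes of -1.82 (95% interval -2.85 to -0.80), Sema3g of -1.36 (interval -2.24 to -0.48) and Robo2 of -1.01 (interval -1.67 to -0.36). All 3 had an adjusted p of 0.62, and edgeR called 0 genes of 17002 in this test (0.0%), with 1363 at an unadjusted p below 0.05, 3 of the 9 genes among them. DESeq2 called 22 genes (0.143% of those with an adjusted p), of the 9 only Thsd7a (adjusted p = 0.0338). For the other 6 genes the interaction lay between -0.26 (Efnb1) and 0.11 (Ephb4), with every 95% interval including 0. Of the 10 podocyte markers 9 had a negative interaction, with a median of -0.83, 7 at an unadjusted p below 0.05 and none called by edgeR or DESeq2, and their part in the values of the 3 genes was not tested.

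**Figure D3:**
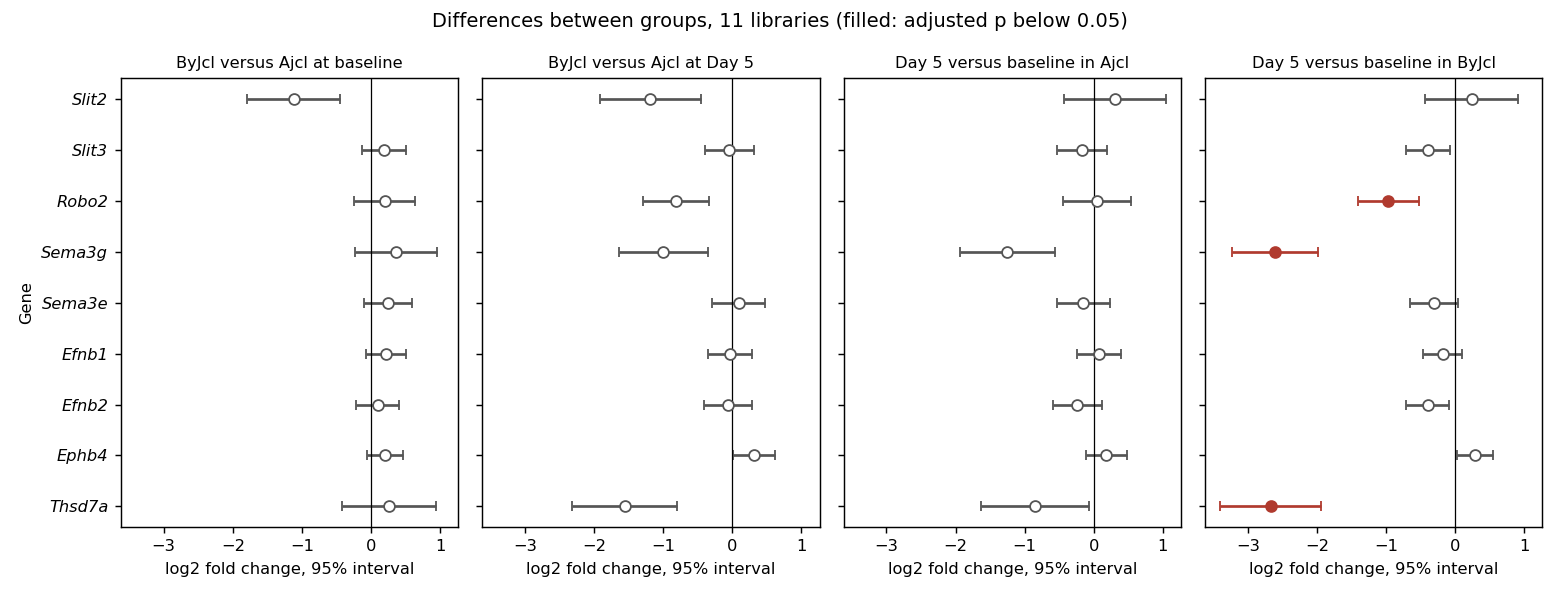
Log2 fold change on the x axis of the 9 genes in the 4 comparisons between groups, with 95% intervals, from 11 libraries; filled points have an adjusted p below 0.05. Only Sema3g, Thsd7a and Robo2 in ByJcl, at -2.61, -2.67 and -0.97, are filled.

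The falls of the 3 genes were set beside those of podocytes as a whole. Of the 10 podocyte markers, 9 were called in ByJcl at Day 5, 8 lower and Cdkn1c, a cell cycle inhibitor of mature podocytes, higher by 1.01. Their median log2 fold change was -1.11, and of all tested genes 10.6% were called, 4.83% as lower. In Ajcl none was called by edgeR, 3 had an unadjusted p below 0.05, DESeq2 called 2, and the median was -0.32. The shares over all tested genes there were 0.312%, 9.8% and, for DESeq2, 1.77% of its genes with an adjusted p. The podocyte marker sum ranged from 21000 to 24200 CPM in ByJcl baseline and from 11100 to 15100 at Day 5, and from 16700 to 22900 and 13900 to 18000 in Ajcl. When each gene was expressed as its log2 level minus the mean log2 level of the 10 markers in the same library, Sema3g and Thsd7a were still lower at Day 5. In ByJcl Sema3g went from 1.48 ± 0.126 to -0.19 ± 0.102, and in Ajcl from 1.32 ± 0.160 to 0.30 ± 0.361 (n = 2). Thsd7a went from -0.57 ± 0.0724 to -2.30 ± 0.0759 in ByJcl and from -0.64 ± 0.188 to -1.32 ± 0.646 in Ajcl. For both genes, every Day 5 library of either substrain lay below every baseline library of that substrain, Ajcl Day 5 replicate 1 included, though for Thsd7a in Ajcl the nearest libraries were -0.86 and -0.85. With Cdkn1c left out of the mean, after its rise had been seen, this held for Sema3g in both substrains and for Thsd7a in ByJcl, with changes in ByJcl of -1.45 and -1.51, and the Thsd7a libraries in Ajcl overlapped. These relative levels are a description and were not tested.

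Robo2 behaved otherwise on this scale. Relative to the markers it was -1.69 ± 0.156 in ByJcl baseline and -1.69 ± 0.0875 at Day 5, a change of -0.01. That mean includes Cdkn1c, which rose, and 6 of the 10 markers had a lower log2 fold change than Robo2. Without Cdkn1c the change was 0.21, with libraries that overlapped. In Ajcl it was -1.68 ± 0.097 at baseline and -1.35 ± 0.115 at Day 5, and with replicate 1 the latter was -1.49 ± 0.254, with libraries that overlapped baseline; without Cdkn1c they did not overlap. Efnb1, the ephrin that podocytes carry at the slit diaphragm, lay higher relative to the markers at Day 5, by 0.78 in ByJcl and 0.38 in Ajcl, and Ephb4 by 1.25 and 0.48, in differences that were not tested. Slit2, Slit3, Sema3e and Efnb2 were higher on this scale in ByJcl as well, by 0.55 to 1.10, and any gene whose level stays the same while the markers fall is higher on it. At baseline the relative levels of Robo2 were -1.69 in ByJcl and -1.68 in Ajcl, those of Efnb1 -1.74 in both and those of Ephb4 -2.10 and -2.08. Sema3g was higher in ByJcl on this scale, at 1.475 against 1.316, and Efnb2 lower, at -1.117 against -0.986. These baseline differences were not tested.

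**Figure D4:**
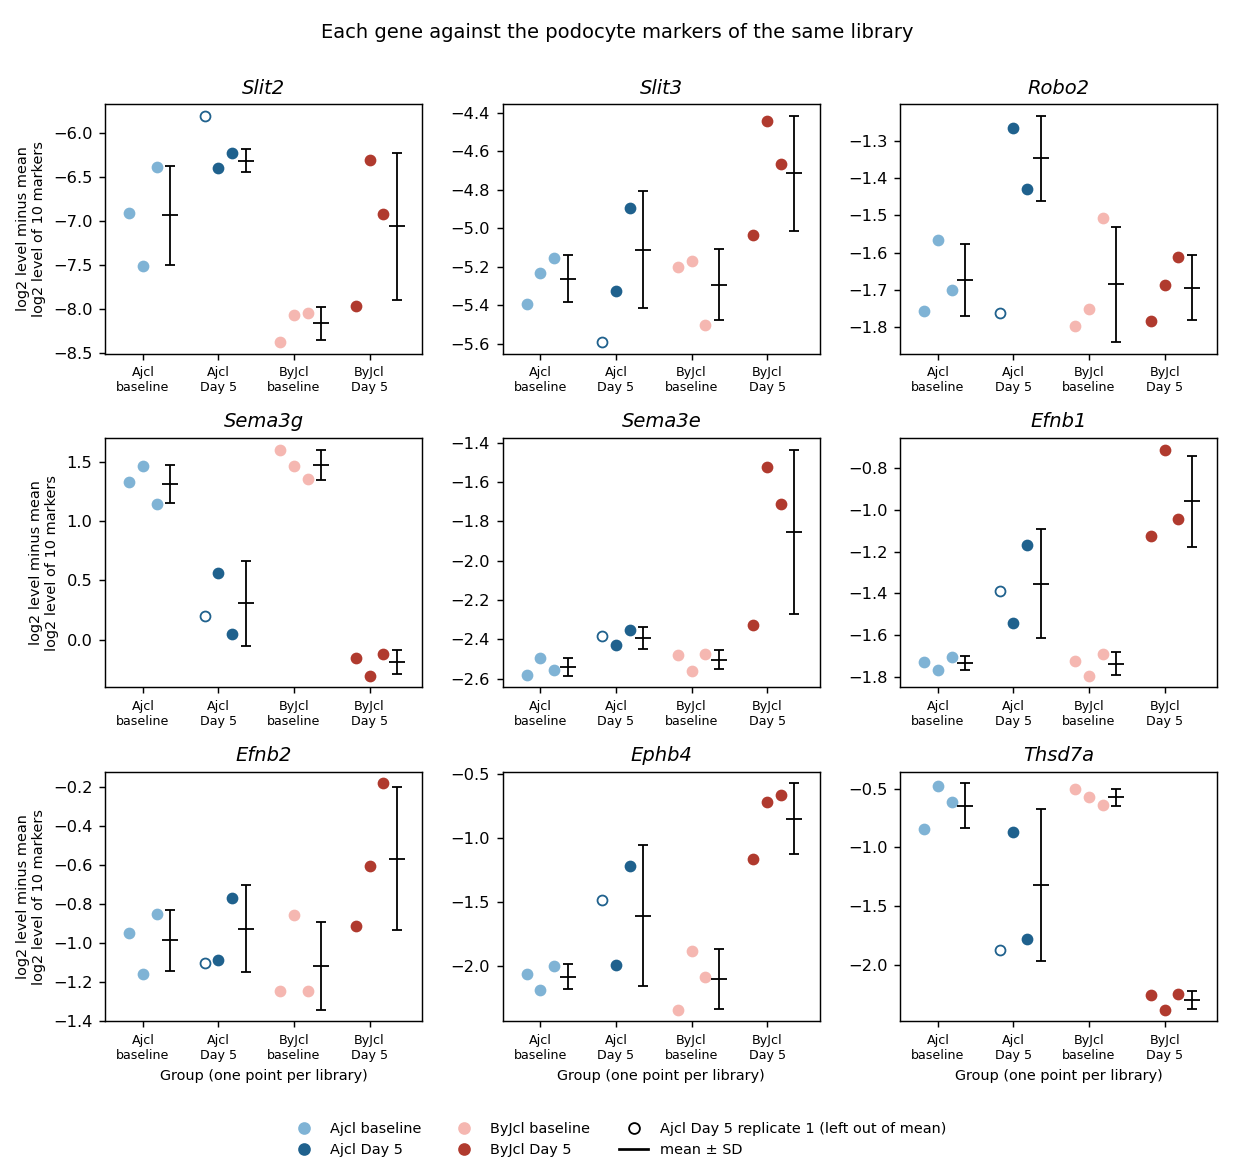
Each gene's log2 level minus the mean log2 level of 10 podocyte markers in the same library (y axis), 1 point per library by group; bars are mean ± SD and the open point is Ajcl Day 5 replicate 1. In ByJcl Sema3g and Thsd7a drop at Day 5, to -0.19 and -2.30, while Robo2 stays at -1.69. In Ajcl Sema3g is lower as well, and for Thsd7a the highest Day 5 library, at -0.865, almost reaches the lowest of baseline, at -0.847. These levels were not tested.

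Ratios per transcript length between genes of the group were taken within each library, as a description. Sema3g outnumbered Sema3e by 24.0 ± 2.17 in ByJcl baseline and 22.0 ± 2.04 in Ajcl baseline, and by 4.97 ± 1.70 and 10.0 ± 2.84 at Day 5. Thsd7a to Robo2 was 1.76 ± 0.265 in ByJcl baseline and 1.65 ± 0.118 in Ajcl baseline, and 0.531 ± 0.0440 and 0.848 ± 0.306 at Day 5. The ligand Efnb2 stood at 1.73 ± 0.160 times its receptor Ephb4 in ByJcl baseline and at 1.06 ± 0.139 at Day 5, without overlap of the libraries. In Ajcl that ratio was 1.86 ± 0.0790 and 1.41 ± 0.316 (n = 2), also without overlap.

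By library profile over the 11 libraries, the genes nearest to Sema3g were Magi2, a slit diaphragm scaffold, Wif1, a secreted WNT inhibitor, and Thsd7a, with root mean square differences of 0.171, 0.178 and 0.211 on the log2 scale among 13640 genes. The nearest to Thsd7a were Rassf10 (0.17), Magi2 (0.194) and Cacna2d2 (0.198). Robo2 lay nearest to Fam222a (0.132), Wt1 (0.134), a transcription factor of podocytes, and Lyrm9 (0.142). Sema3g and Thsd7a thus had Magi2 in common among their nearest genes. Wt1, near Robo2, is 1 of the 10 podocyte markers, as is Clic5, which was among the nearest genes of both Sema3e and Slit3. The neighbours of Sema3e were Tgfbr3 (0.108), Clic5 (0.108) and Iffo2 (0.109), and those of Slit3 were Plxdc2 (0.0763), Serac1 (0.085) and Clic5 (0.0874). Efnb1 was closest to St3gal3 (0.0717), Rbms2 (0.0778) and Tmem108 (0.0882), and Efnb2 to Fbxo46 (0.0615), Nr3c1 (0.0686) and Rnf145 (0.0698). For Ephb4 they were Nedd9 (0.0745), Zbtb25 (0.0756) and Map7d1 (0.0761). The 11 libraries came from 4 groups, so nearness of profile includes differences between groups, and it was not tested.

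Slit2, on chromosome 5 at 48140480 to 48465075 (plus strand), was the gene of the group whose libraries separated by substrain and not by time. The Ajcl baseline libraries held 8.77, 7.55 and 13.2 CPM and the ByJcl baseline libraries 4.08, 4.53 and 5.01. At Day 5 Ajcl replicates 2 and 3 held 13.5 and 10.9, with 14.1 in replicate 1, and ByJcl held 3.14, 7.72 and 5.23. At either time every Ajcl library was above every ByJcl library. The log2 difference was -1.11 (SE 0.307, adjusted p = 0.481) at baseline and -1.19 (SE 0.333, adjusted p = 0.175) at Day 5. A contrast averaged over both times, added after these values were seen, gave -1.15 (95% interval -1.65 to -0.65, adjusted p = 0.0556), in which 0.565% of all tested genes were called. It was called with 12 libraries (adjusted p = 0.0286) and by DESeq2 (adjusted p = 0.000142, with 4.14% of its genes called), and not with a replicate block (adjusted p = 0.0731). Of 19 alternatives 6 called it, with adjusted p values from 0.000142 to 0.309.

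Levels of markers of other cell types are given beside the Slit2 difference. The 6 distal nephron markers summed to 536 to 1630 CPM in Ajcl baseline and 837 to 1100 at Day 5, and to 140 to 550 and 99.3 to 513 in ByJcl. All 6 were lower in ByJcl at both times, with median log2 differences of -1.27 and -1.68, and none was at 0. None was called by edgeR at either time, 2 at baseline and 3 at Day 5 had an unadjusted p below 0.05, and DESeq2 called 1, at Day 5. Of all tested genes 8.34% and 14.0% had an unadjusted p below 0.05 at the 2 times, and DESeq2 called 3.49% at Day 5. In the contrast averaged over both times 1 of the 6 was called lower by edgeR, 5 had an unadjusted p below 0.05 and the median was -1.40. Of all tested genes 0.565% were called in that contrast and 15.9% had an unadjusted p below 0.05. The Ajcl Day 5 replicate 1 library, with the highest sum of 2060 CPM, also had the highest Slit2. Per 1000 CPM of the distal nephron markers, Slit2 stood at 6.81 to 14.1 CPM in the Ajcl libraries and at 9.11 to 31.6 in the ByJcl libraries. The highest values, 29.2 and 31.6, came from ByJcl replicate 1 of baseline and of Day 5, with the lowest marker sums, 140 and 99.3 CPM. The remaining ByJcl libraries lay at 9.11 to 15.1. The genes with the nearest profile were Mpzl2 (0.189), Rab25 (0.195) and Scn4b (0.219). The 8 proximal tubule markers were all lower in ByJcl too, with medians of -0.68 and -0.96 at baseline and Day 5, none called by edgeR or DESeq2. The 6 immune markers were all higher, with sums of 50.9 to 89.7 and 57.6 to 110 CPM in ByJcl against 22.4 to 41.4 and 13.6 to 47.0 in Ajcl, medians of 0.92 and 1.13 and none at 0. None of these was called by edgeR, 4 and 3 had an unadjusted p below 0.05, and DESeq2 called 1, at Day 5. The part of tubule and immune RNA in the Slit2 difference was not tested. Slit3, by contrast, differed by 0.19 (95% interval -0.14 to 0.51) at baseline and by -0.04 (interval -0.40 to 0.32) at Day 5, and lay 9.07 ± 2.09 times above Slit2 in ByJcl baseline and 3.88 ± 1.59 times in Ajcl baseline, per length.

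The receptors that could take these ligands were present at very different levels. Beside Robo2, Robo1 lay at 10.9 ± 1.83 CPM per kb in Ajcl baseline and 12.3 ± 2.37 in ByJcl baseline, and the endothelial receptor Robo4 at 18.6 ± 0.863 and 19.97 ± 2.81. Neither passed the test in any comparison. Of the 10 tested genes in a list of 11 others from the SLIT pathway, 1 rose and 1 fell in ByJcl at Day 5, where 10.6% of all tested genes were called and 4.83% called lower. Srgap3, a GTPase-activating protein bound by ROBO, rose by 2.53 (SE 0.452, adjusted p = 0.00692) from 6.38 ± 1.16 to 36.8 ± 22.2 CPM. Its value in Ajcl, 1.78, was not called by edgeR (adjusted p = 0.205) but was by DESeq2 (adjusted p = 0.00764). Gpc1, a glypican that binds SLIT, fell by 0.61 (SE 0.146, adjusted p = 0.0255), and its -0.14 in Ajcl was not called (adjusted p = 0.855). The list's median was -0.12.

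Among the semaphorin receptors, Nrp1, the neuropilin that is also a VEGF co-receptor, lay at 353 ± 21.7 CPM per kb in Ajcl baseline and 368 ± 45.0 in ByJcl baseline. At Day 5 it was 293 ± 27.9 and 237 ± 70.5, and its change in ByJcl, -0.63, was not called by edgeR (adjusted p = 0.0685) but was by DESeq2 (adjusted p = 0.0183). Nrp2 lay at 7.92 ± 1.62 and 10.9 ± 2.01 at baseline, with a change of 0.35 in ByJcl (adjusted p = 0.294). Plxnd1, the receptor of Sema3e, fell in ByJcl by 0.63 (SE 0.17, adjusted p = 0.0387) from 71.9 ± 9.98 to 46.5 ± 10.1 CPM per kb, and its -0.31 in Ajcl was not called (adjusted p = 0.676). With Ajcl Day 5 replicate 1 in the fit, Plxnd1 was no longer called in ByJcl. Endothelium carries Plxnd1, Nrp1 and Sema3g, and the 8 glomerular endothelium markers summed to 8060 to 9540 CPM in ByJcl baseline and 5060 to 7280 at Day 5, with 6 of 8 lower, 2 of them called, a median of -0.26 and none at 0. The 5 smooth muscle and arteriole markers summed to 305 to 386 and 511 to 632 CPM, with all 5 higher and 1 called. Calls for both sets of cells stand against 10.6% of all tested genes called in ByJcl. The part of these cells in the changes of the 3 genes was not tested. Plxna1 and Plxna2 had changes of 0.39 in ByJcl (adjusted p = 0.129 and 0.295).

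Of 29 other semaphorin, plexin and neuropilin genes, all tested, 3 rose and 6 fell in ByJcl at Day 5, against 10.6% of all tested genes called and 4.83% called lower, with a median of -0.29. Sema5b fell by 1.67 (adjusted p = 0.00325), Sema5a by 1.13 (adjusted p = 0.00557) and Sema6c by 1.19 (adjusted p = 0.01), all of them transmembrane semaphorins. Sema5a was at 821 ± 38.1 CPM in ByJcl baseline and 376 ± 56.0 at Day 5. In Ajcl Sema5b, Sema5a and Sema6c had -0.40, -0.14 and -0.17, none called (adjusted p = 0.723, 0.887 and 0.889). Sema7a, a membrane-anchored semaphorin with an integrin-binding site, rose by 1.34 (adjusted p = 0.00396), from 170 ± 26.6 to 430 ± 142 CPM. Sema6b rose by 1.21 (adjusted p = 0.00588) and Sema3f, a class III ligand like Sema3g, by 0.47 (adjusted p = 0.0177). In Ajcl Sema7a had 1.12 and Sema6b 1.20, not called by edgeR (adjusted p = 0.0874 and 0.061) but called by DESeq2 (adjusted p = 0.00076 and 0.000394), and Sema3f had 0.28 (adjusted p = 0.441). None of these 6 genes was called in the interaction by either tool.

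**Figure D5:**
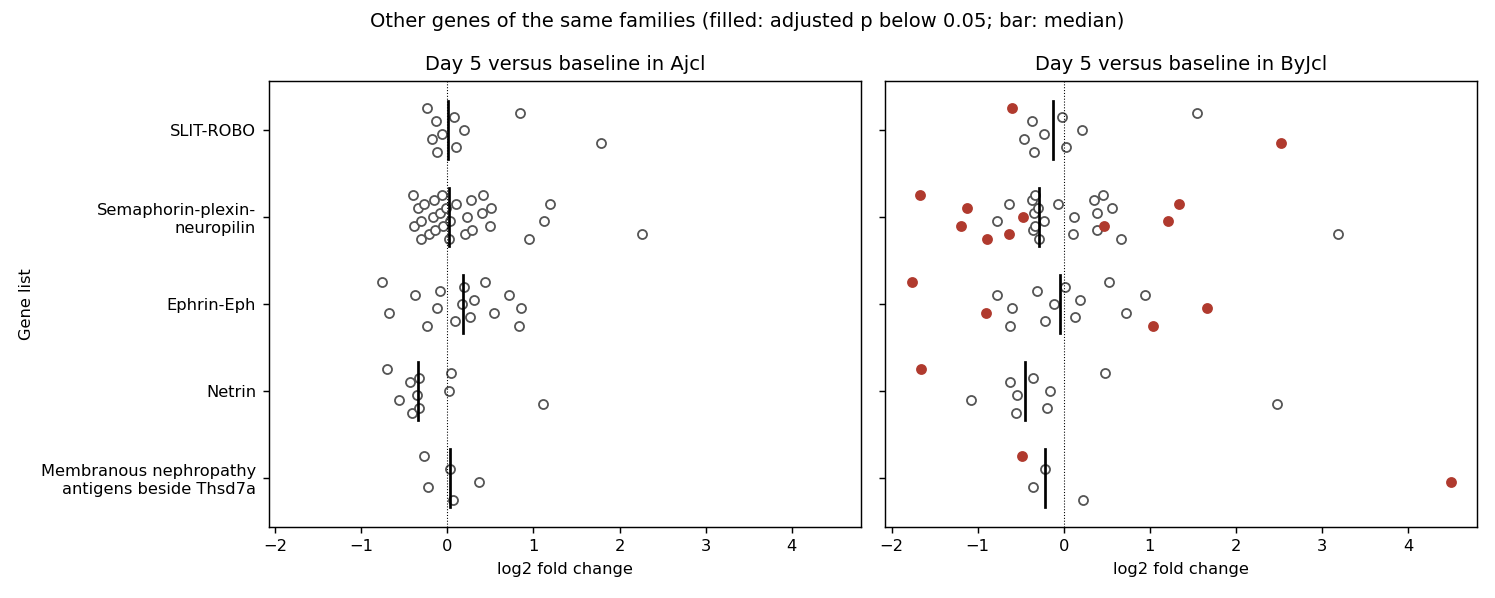
Log2 fold change (x axis) of 70 tested genes in 5 lists of related genes, Day 5 against baseline in Ajcl (left) and ByJcl (right); filled points have an adjusted p below 0.05 and bars mark each list's median. In ByJcl 7 genes rose and 11 fell past the edgeR test, which called 10.6% of all tested genes. In Ajcl none did, against 0.312% of all tested genes, 13 had an unadjusted p below 0.05, against 9.8%, and DESeq2 called 5, against 1.77%.

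Ephb1, Ephb2 and Ephb3, receptors of the same class as Ephb4, lay at very different levels. Ephb1 was at 30.1 ± 4.70 CPM per kb in Ajcl baseline and 32.8 ± 1.73 in ByJcl baseline, against 0.782 ± 0.226 and 0.791 ± 0.260 for Ephb3 and 0.102 ± 0.0117 and 0.0650 ± 0.0348 for Ephb2. Ephb1 fell in ByJcl by 1.76 (SE 0.299, adjusted p = 0.00571), from 153 ± 8.06 to 45.1 ± 17.3 CPM, and its -0.76 in Ajcl was not called (adjusted p = 0.488). Ephb2 and Ephb3 were not called in any comparison. Of 16 tested genes in a list of 19 ephrins and Eph receptors, 2 rose and 2 fell in ByJcl at Day 5, against 10.6% of all tested genes called and 4.83% called lower, with a median of -0.04. Epha2, an Eph receptor of epithelia, rose by 1.66 (adjusted p = 0.00397) from 74.5 ± 13.3 to 236 ± 56.9 CPM, and Efna5 by 1.04 (adjusted p = 0.0062). Efna1, a ligand of Epha2, fell by 0.90 (adjusted p = 0.00405). In Ajcl Epha2 had 0.83 and Efna5 0.54 (adjusted p = 0.32 and 0.352), and Efna1 had -0.68, not called by edgeR (adjusted p = 0.143) but called by DESeq2 (adjusted p = 0.0122). None of the 3 was called in the interaction by either tool. Epha3 was lower in ByJcl in the contrast averaged over both times, by 1.24 (SE 0.216, adjusted p = 0.0315). That contrast, added after the Slit2 values were seen, called 0.565% of all tested genes. By edgeR Epha3 was called at neither time alone (adjusted p = 0.503 at baseline and 0.104 at Day 5).

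The netrin list, with 10 of 11 genes tested, had 1 called gene in ByJcl, where 10.6% of all tested genes were called. This was Ntng2, a membrane-anchored netrin, which fell by 1.65 (SE 0.266, adjusted p = 0.0043) from 193 ± 12.1 to 61.3 ± 24.9 CPM, and had -0.56 in Ajcl (adjusted p = 0.584). The list's median was -0.45. Of 6 genes set beside Thsd7a, other antigens of membranous nephropathy and its paralog Thsd7b, 5 were tested, and 1 rose and 1 fell in ByJcl, against the same 10.6%. Ext2, a heparan sulfate polymerase, fell by 0.48 (adjusted p = 0.0357), a call lost with Ajcl Day 5 replicate 1 in the fit. Thsd7b was called higher (adjusted p = 0.00919), on counts of 2, 0 and 2 at baseline and 26, 26 and 38 at Day 5. In Ajcl it had 0.36 (adjusted p = 0.928), on counts of 4, 12 and 2 at baseline. Day 5 replicates 2 and 3 there held 6 and 10, with 12 in the left-out replicate 1. Across the 5 lists 70 of 76 genes were tested, and edgeR called none of them in Ajcl at Day 5, between the substrains at either time or in the interaction. Unadjusted p values below 0.05 numbered 13 in Ajcl, 8 between the substrains at baseline, 14 at Day 5 and 12 in the interaction, against 9.8%, 8.34%, 14.0% and 8.02% of all tested genes. DESeq2 called 4 higher and 1 lower in Ajcl, 1 lower in ByJcl at baseline, 1 higher and 3 lower at Day 5, and 0 in the interaction, against 1.77%, 0.631%, 3.49% and 0.143% of its genes with an adjusted p.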

How the data were processed

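Total RNA of bead-isolated glomeruli was sequenced as strand-specific poly(A) libraries (paired reads). The authors deposited raw gene counts per library, made per the labels with FastQC, Trimmomatic, STAR and featureCounts on GRCm39, in one table for baseline and another for Day 5. The strand setting is not given in the sources used here, so reads of antisense partners cannot be separated. Of counts from 1 to 49, 77.1 to 82.8% were even, as when both mates are counted, so counting noise is understated and the counts were also halved as an alternative.

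From these counts, edgeR 4.0.16 (R 4.3.3) was run with TMM scaling, filterByExpr and the quasi-likelihood test on 4 groups and 11 libraries, leaving 17002 genes, with Benjamini-Hochberg adjustment over all of them and calls at 0.05. CPM uses the same scaling. Lengths are those of GENCODE M39 Ensembl canonical transcripts, and log2 levels against markers added 0.5 CPM. Alternatives were 12 libraries (16612 genes), DESeq2 1.42.0, RLE scaling, no low-count filter, halved counts, a replicate block and leaving out each library. The script was also run on simulated counts with known changes placed in ByJcl Day 5 only. These counts were drawn with the spread of the main fit, so that run cannot say whether the real spread follows the model. The p-values set each difference between groups against the spread between libraries, estimated over all 4 groups together.

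Members and lists were chosen with earlier results of these data known. In the text stand the 9 members, the receptors fixed for their ligands, at most 3 called genes per direction of each list with the smallest adjusted p, Plxnd1 among the receptors, and the 3 genes of nearest profile with a mean of at least 1 CPM. Promoters were taken from RefSeq and placed on GRCm39 by exact match.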

Additional observations from a re-analysis of the deposited data

How the results depend on the processing

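The falls of Sema3g and Thsd7a in ByJcl at Day 5 were called under every alternative run, and that of Robo2 under all but the one without ByJcl Day 5 replicate 2 (-0.88, adjusted p = 0.0672). Of 874 recomputed log2 fold changes of the 9 genes, 809 kept their direction and side of the threshold, 22 became called, 1 lost its call and 42, none of them called, changed sign. The cause of these changes was not tested. Groups held 2 or 3 libraries with a common dispersion of 0.0521, and the 95% intervals in the text give the sizes of difference that this spread leaves undecided.

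DESeq2 called 1 of the 9 genes between the substrains at baseline (101 of all genes), 4 at Day 5 (535), 1 in Ajcl (301) and 1 in the interaction (22). Without a low-count filter 56 genes were called between the substrains at Day 5 and 99 in Ajcl. With 12 libraries 72 were called between the substrains at Day 5 and 1197 in ByJcl. With 12 libraries less Ajcl Day 5 replicate 2, chosen after seeing the data, 2 of the 9 and 148 of all genes were called in Ajcl, and 15 genes between the substrains at Day 5. With 12 libraries less Ajcl Day 5 replicate 3, likewise, 2 of the 9 and 793 of all were called between the substrains at Day 5, 15 at baseline, 22 in Ajcl and 2 in the interaction. Leaving out 1 library at a time gave 12 to 29 calls at baseline, 9 to 218 between the substrains at Day 5, 11 to 180 in Ajcl, 680 to 2056 in ByJcl and 0 to 5 in the interaction, with 0 to 2 of the 9 genes called at Day 5 and in Ajcl. The ends 9, 218, 11 and 180 came from fits without Ajcl Day 5 replicate 2 or 3, which left that group 1 library, assumed to vary like the others.

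Replicate numbers belong to different animals, and deviations of same-numbered libraries correlated by -0.389 to 0.527 over 15 pairs, so the numbers were not taken to pair them. With a replicate block 26 genes were called in Ajcl, 19 in each comparison of the substrains, 1592 in ByJcl and 0 in the interaction, the calls among the 9 genes were the same, and the Slit2 interaction was 0.04.

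Sign changes with 12 libraries, then less Ajcl Day 5 replicate 2, then less replicate 3, were as follows. Between the substrains at Day 5, Slit3 was 0.18, 0.31 and 0.28, Efnb1 0.07, 0.14 and 0.08, and Efnb2 0.08, 0.20 and 0.10. In Ajcl, Robo2 was -0.17, -0.53 and -0.10, and Efnb1 -0.04, -0.14 and -0.05. In the interaction, Slit3 was 0.02, 0.15 and 0.12, Efnb2 0.01, 0.12 and 0.03, and Sema3e, in the second only, 0.11. Leaving out 1 library gave -0.11 to 0.05 for Efnb1, -0.21 to 0.05 for Efnb2 and -0.09 to 0.32 for Sema3e between the substrains at Day 5. It gave -0.33 to 0.32 for Robo2, 0.0 to 0.20 for Efnb1 and -0.38 to 0.03 for Sema3e in Ajcl, and -0.12 to 0.52 for Slit2 in ByJcl. In the interaction it gave -0.43 to 0.22 for Slit2, -0.33 to 0.08 for Sema3e and -0.01 to 0.28 for Ephb4.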
